A study of Homo sapiens with 9 samples.

Results

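The long noncoding RNA genes expressed in RKO cells were followed through loss of DIP2C. RKO is an established line from a human colon carcinoma, and DIP2C is a gene of the disco-interacting protein 2 family. Genes were taken by symbol, as numbered LINC genes, antisense genes with names ending in -AS and a digit, miRNA host genes and SNHG genes, together with UCA1, MALAT1, NEAT1, GAS5, TUG1 and PVT1. Genes were further selected on their counts, with a mean of at least 20 over the 9 samples. Of 23619 gene symbols in the data, 719 had such a name and 185 of these were kept. They comprised 28 LINC genes, 131 antisense genes, 7 miRNA host genes, 14 snoRNA host genes (the SNHG genes with GAS5) and 5 other named genes. The mean count decided which genes were kept, so their abundance is described here without a test. Just inside the minimum lay SNHG9, LINC00526 and FRMD6-AS1 with mean counts of 20.4, 20.7 and 20.8. Just outside lay UBAC2-AS1, BCDIN3D-AS1 and LINC00673 with 19.1, 18.6 and 18.3. Of the 185 genes, 162 reached a mean of 20 in all 3 groups and 23 did not. MIR100HG, HOXB-AS3 and SNHG9 reached it in parental cells alone, and for such genes a difference between groups is partly built into the choice. The same holds for UCA1, which did not reach it in DIP2C-/- cells and reached it in DIP2C+/- cells only through clone H9-A4. In the other direction, NPPA-AS1 and SNAI3-AS1 did not reach a mean of 20 in parental cells and were kept through the clones.

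The question was how loss of DIP2C changes expression. The groups were parental RKO (2 samples), DIP2C-/- cells (clones E3 and C10) and DIP2C+/- cells (clones A6-C9, A9-A12, F6-A7, G1-A5 and H9-A4). All were RKO cells grown for 48 h under the same conditions, with 1 library per sample. Part of exon 9 of DIP2C had been deleted with a recombinant adeno-associated virus, and each clone was grown from a single cell after Geneticin selection and Cre removal of the cassette. The DIP2C-/- clones were obtained by targeting a DIP2C+/- line again, so the clones are not independent of each other. The paper describes fewer DIP2C+/- clones than the labels give. How the labelled clones relate to those is not stated, so the DIP2C+/- clones may not all be independent either. Both comparisons with parental cells share the same 2 parental samples. The parental samples had not passed through targeting or single-cell cloning, so effects of those steps and of genotype cannot be told apart. Nothing states that the parental samples came from separate cultures, and p-values may there measure technical spread.

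Long noncoding RNAs are transcripts without a long open reading frame. Some act in the nucleus as structural parts of bodies such as paraspeckles, some bind proteins or small RNAs in the cytoplasm, and for many no function is known. A separate kind serves mainly as a precursor: introns of snoRNA host genes release small nucleolar RNAs, which guide modification of ribosomal RNA, and miRNA host genes release miRNAs, which repress mRNAs that match their seed. Antisense genes are transcribed from the strand opposite a coding gene. In colorectal and other tumours UCA1, PVT1, LINC00152 and MIR17HG are known as transcripts that are often raised.

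The deposited values, taken as estimated counts, summed to 14772593 to 21486483 per sample. Relative to these unscaled totals, 3 counts corresponded to 0.14 to 0.203 per 1000000. CPM given here are counts per 1000000 of the scaled library total, with scaling factors of 0.945 to 1.05, so this level is approximate for them. DIP2C itself had 61.0 and 70.9 CPM in parental cells, 17.4 and 22.8 in the DIP2C-/- clones and 33.6 to 56.3 in the DIP2C+/- clones, with the highest of these in H9-A4. Clone H9-A4 stood apart over all genes. Its root mean square log2 difference from the other DIP2C+/- clones was 0.841, against 0.578 to 0.620 for the others, and from parental cells it was 0.609, against 0.773 to 0.839. Results are therefore given with all 9 samples and without H9-A4. H9-A4 was set apart after its values were seen, and it was the DIP2C+/- clone nearest parental cells. Leaving it out tends to widen the gap to parental cells in fits with DIP2C+/- clones. The p-values without it do not allow for that choice. In such bulk RNA, fewer cells with a transcript and less of it per cell cannot be told apart. Of the epithelial markers, KRT18 (121 to 293 CPM) and KRT8 (7.02 to 21.5 CPM) were present, while CDH1 and KRT19 reached at most 0.698 and 0.227 CPM. EPCAM had 3.79 CPM in H9-A4 and at most 1.05 in the other samples. Of the intestinal markers, CDX2 had 15.6 to 19.8 CPM and the other 4 were below 1 CPM in every sample. Summed fibroblast, leukocyte and endothelial markers (5 of each) stayed at or below 7.05, 2.28 and 5.61 CPM, and no marker passed the test in any comparison.

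Of the miRNA host genes, MIR100HG fell in the clones and MIR22HG rose in the fit without H9-A4, so the main mature miRNAs they are annotated to release are shown, 5′ to 3′ with the seed (bases 2 to 8) in capitals. The sequences are from RefSeq on GRCh38.p14. MIR100HG, on the minus strand of chromosome 11, holds these:

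hsa-miR-100-5p: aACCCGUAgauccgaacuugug

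hsa-let-7a-5p: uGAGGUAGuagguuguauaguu

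hsa-miR-125b-5p: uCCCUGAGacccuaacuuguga

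LINC00085, now annotated as the coding gene SPACA6 on chromosome 19, holds miRNAs with the same 3 seeds:

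hsa-miR-99b-5p: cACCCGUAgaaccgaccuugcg

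hsa-let-7e-5p: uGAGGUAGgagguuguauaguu

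hsa-miR-125a-5p: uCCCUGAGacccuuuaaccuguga

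MIR22HG, on chromosome 17, holds 1 miRNA gene:

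hsa-miR-22-3p: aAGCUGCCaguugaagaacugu

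The values that follow are of the host transcripts, and the mature miRNAs were not measured here.

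The 185 genes together took 4842 to 6505 CPM per sample, or 0.484% to 0.651% of the scaled total. MALAT1, SNHG7 and C17orf76-AS1 (now SNHG29) made up 48.5% to 57.2% of that sum. MALAT1, an abundant nuclear RNA of splicing speckles, had 1367 and 1913 CPM in parental cells, 1352 and 1674 in the DIP2C-/- clones and 1022 to 1531 in the DIP2C+/- clones. Per kilobase of annotated exon, the highest parental levels were those of SNHG7 (199 CPM per kb) and MALAT1 (157), followed by LINC00674 (92.6), SNHG16 (57.9) and C17orf76-AS1 (51.1). LINC00674 has only 160 bases of annotated exon. These levels use all exons annotated today, which may exceed those counted by the authors. The summed level of the genes overlapped between groups: 5137 and 6191 CPM in parental cells, 4894 and 5370 in DIP2C-/- clones and 4842 to 6505 in DIP2C+/- clones.

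As a whole, the long noncoding RNA genes did not shift in either direction. The median log2 fold change against parental cells was 0.02 in DIP2C-/- clones and 0.02 in DIP2C+/- clones, and over all 15532 tested genes it was 0.02 in both. Of the 185 genes, 94 lay above 0 in each comparison (50.8%), against 51.8% and 52.2% of all genes. With all 9 samples in the fit (edgeR's quasi-likelihood test, Benjamini-Hochberg adjusted p under 0.05 over all genes), 0 of the 185 genes passed in DIP2C-/- clones, against a background of 0% of all genes higher and 0.00644% lower. At an unadjusted p under 0.05 there were 24 (13%), against 12.7% of all genes. DESeq2 called 1 higher (LINC00346) and 2 lower (MIR100HG and TMPO-AS1), against 105 and 190 of all genes. In DIP2C+/- clones MIR100HG alone was lower and 0 genes were higher (background 0.0966% lower and 0% higher), with 13 genes (7.03%) at an unadjusted p under 0.05, against 11.6% of all genes. DESeq2 called 1 higher and 1 lower there, against 98 and 93 of all genes. MIR100HG was also the single call in the average of all 7 clones (background 0.174% lower and 0.00644% higher).

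Without H9-A4, a clone left out because of its own values, more genes passed, among the noncoding genes as among all genes. In DIP2C-/- clones LINC00346 and LINC00657 were higher and UCA1, MIR100HG and SNHG1 lower, 2 and 3 of 185, against 2.32% of all genes higher and 2.44% lower. In DIP2C+/- clones 4 were higher and 6 lower (background 4.37% and 3.58%). In the average of the 6 remaining clones, 4 genes were higher (LINC00346, MIR22HG, LBX2-AS1 and PVT1) and 7 lower (UCA1, MIR100HG, LINC00152, LINC00641, HNRNPU-AS1, SNHG1 and MIR600HG), against 4.48% and 4.47% of all genes. Neither share is above its background. The median log2 fold change in that average was -0.06, against 0.01 for all genes.

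**Figure D1:**
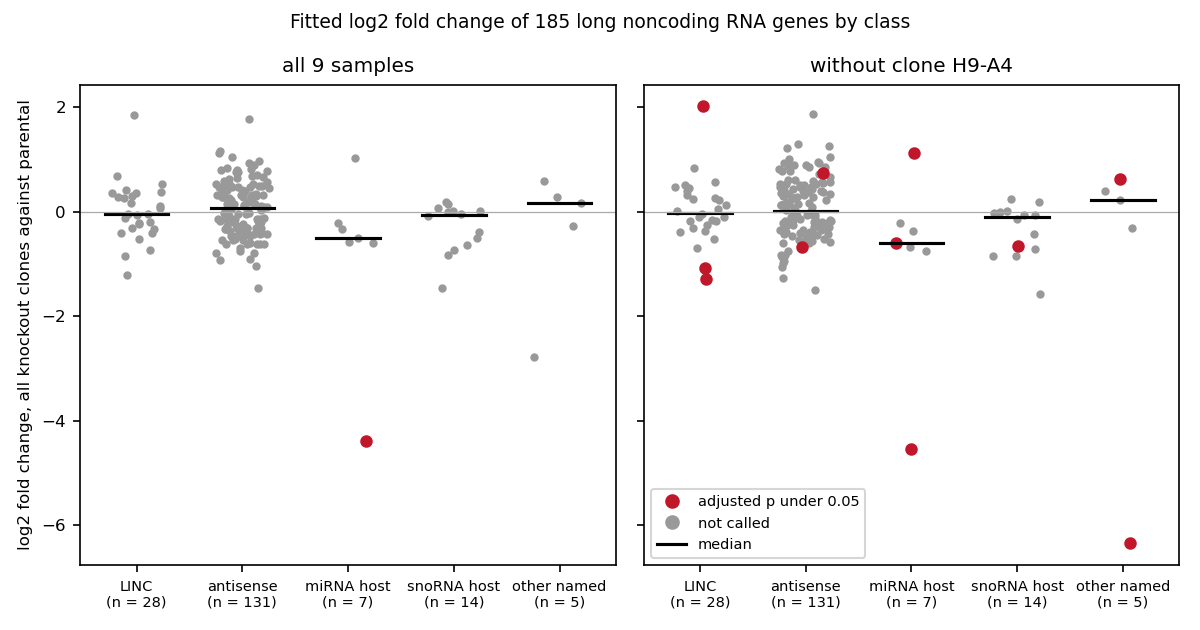
Fitted log2 fold change between the mean of the clones and parental RKO (vertical axis) for the 185 genes by class, each point 1 gene, with all 9 samples (left, 7 clones) and without clone H9-A4 (right, 6 clones). Red points have an adjusted p under 0.05 and black bars are class medians. MIR100HG is the single call on the left, and 11 genes are called on the right, where UCA1 lies lowest.

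UCA1, a transcript first described in urothelial carcinoma, nearly vanished from 6 of the 7 clones. It is annotated on the plus strand of chromosome 19 (GRCh37, 15939016 to 15947138), and its exons meet no coding exon. It had 12.1 and 15.1 CPM in parental cells, 0.323 and 0.156 in E3 and C10, and 0.102, 0.107, 0.183 and 0.148 in A6-C9, A9-A12, F6-A7 and G1-A5. In H9-A4 it had 22.7 CPM, above both parental samples. The 6 low clones held 21 reads in all, against 544 in the parental samples, which is 1.21% of the parental level (exact 95% interval 0.740% to 1.86%, counting error only). Their values lie around the level of 3 counts, so the fitted fold change depends on small offsets. The gene was kept only through its counts in parental cells and H9-A4. Without H9-A4 it was -6.34 in the average of the clones (standard error 0.35, adjusted p = 2.11e-06, edgeR). With all 9 samples it was -2.78 (standard error 1.51, adjusted p = 0.450, edgeR). The DIP2C-/- clones alone gave -5.83, with an adjusted p of 0.000127 without H9-A4 and 0.404 with it.

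MIR100HG was low in every clone, H9-A4 included. Its annotation on chromosome 11 runs from 121899033 to 122427429 (GRCh37, minus strand). It had 4.79 and 4.54 CPM in parental cells, 0.452 and 0.104 in E3 and C10, and 0.102, 0.215, 0.305, 0.0493 and 0.340 in A6-C9, A9-A12, F6-A7, G1-A5 and H9-A4. The parental and clone values did not overlap. Summed reads were 190 in parental cells and 34 in the 7 clones, 4.69% of the parental level (exact 95% interval 3.15% to 6.78%). The log2 fold change was -4.39 in the average of the clones (standard error 0.53, adjusted p = 0.00901, edgeR). For the DIP2C+/- clones it was -4.51 (adjusted p = 0.0224). In DIP2C-/- clones it was -4.08 (adjusted p = 0.229, or 0.0153 without H9-A4), -5.39 without E3 and -3.39 without C10. The call in the average was lost without either parental sample (adjusted p = 0.122 and 0.0748). The call in DIP2C+/- clones was lost in 6 of the 7 fits that each left out a parental sample or a DIP2C+/- clone (adjusted p up to 0.228). Each clone held 1 to 9 reads, and the gene was kept only through its parental counts.

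LINC00152 was called lower only without H9-A4, and MIR17HG was not called. LINC00152, also named CYTOR, had 29.6 and 73.9 CPM in parental cells, a wide gap between samples of one group. It had 24.0 and 20.5 in E3 and C10, and 27.9, 10.3, 24.5, 20 and 29.1 in A6-C9, A9-A12, F6-A7, G1-A5 and H9-A4. All 7 clones lay below both parental samples, and the log2 fold change was -1.21 (standard error 0.36, adjusted p = 0.273, edgeR), or -1.29 (adjusted p = 0.0408) without H9-A4. It was -1.73 without the first parental sample and -0.41 without the second. LINC00152 has a near-identical copy on the same chromosome, whose reads the counting may have split, so its level is uncertain. MIR17HG, host of the miR-17-92 cluster, had 18.5 and 22.0 CPM in parental cells and 5.21 to 17.6 in the 7 clones, all below both parental samples. Its log2 fold change was -0.60 (standard error 0.34, adjusted p = 0.462, edgeR), and it did not pass without H9-A4 (-0.68, adjusted p = 0.222).

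LINC00346 was the noncoding gene with the largest called increase. It is annotated today as PRECSIT, a single exon on the minus strand of chromosome 13 (GRCh37, 111516334 to 111522677). It had 7.11 and 8.04 CPM in parental cells, 31.8 and 25.4 in E3 and C10, and 32.5, 36.7, 29.3 and 27.9 in A6-C9, A9-A12, F6-A7 and G1-A5. In H9-A4 it had 8.38 CPM, just above the higher parental sample. The mean of the 6 other clones was 4.03 times the parental mean. The log2 fold change was 2.01 without H9-A4 (standard error 0.19, adjusted p = 9.14e-05, edgeR) and 1.85 with it (standard error 0.46, adjusted p = 0.208, edgeR). The increase was of like size by genotype, 1.92 in DIP2C-/- clones (adjusted p = 0.000588) and 2.06 in DIP2C+/- clones (adjusted p = 0.000121), both without H9-A4. DESeq2 called it with all 9 samples (1.85, adjusted p = 0.000929).

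PVT1 and MIR22HG also rose without H9-A4. PVT1, a neighbour of MYC on its chromosome, had 32.7 and 35.8 CPM in parental cells, 45.4 and 53.1 in E3 and C10, and 52.5, 54.3, 56.7, 53.1 and 43.0 in A6-C9, A9-A12, F6-A7, G1-A5 and H9-A4. All 7 clones lay above both parental samples. The log2 fold change was 0.58 (standard error 0.15, adjusted p = 0.241, edgeR) with all samples and 0.61 (standard error 0.13, adjusted p = 0.0151) without H9-A4, and DESeq2 called it with all 9 samples (adjusted p = 0.0345). MIR22HG had 13.7 and 10.2 CPM in parental cells, 19.4 and 27.5 in E3 and C10, and 33.2, 29.4, 19.6 and 27.3 in A6-C9, A9-A12, F6-A7 and G1-A5. H9-A4 had 13.0, between the parental samples. Without it the log2 fold change was 1.12 (standard error 0.24, adjusted p = 0.0158, edgeR), and with it 1.01 (adjusted p = 0.304).

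**Figure D2:**
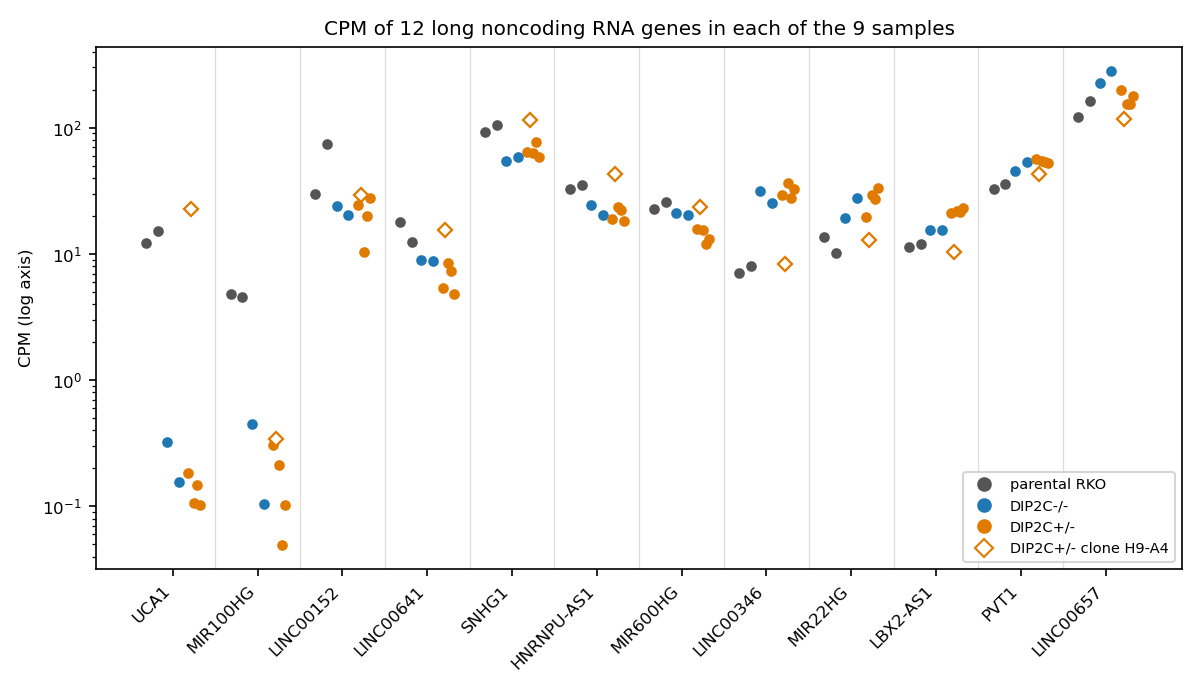
CPM (log axis) of 12 long noncoding RNA genes in each of the 9 samples, grey for parental RKO, blue for DIP2C-/- clones, orange for DIP2C+/- clones and an open diamond for clone H9-A4. UCA1 lies more than 10-fold below parental cells in 6 clones, and MIR100HG does so in every clone. The open diamond lies with or beyond the parental points for UCA1, LINC00346, SNHG1, HNRNPU-AS1, LBX2-AS1, MIR22HG, LINC00641, MIR600HG and LINC00657.

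LINC00657, now named NORAD, binds Pumilio proteins and is known for a role in chromosome stability. It had 122 and 164 CPM in parental cells, 226 and 283 in E3 and C10, and 180, 155, 197, 155 and 117 in the DIP2C+/- clones A6-C9, A9-A12, F6-A7, G1-A5 and H9-A4. Both DIP2C-/- clones lay above all other samples, while the DIP2C+/- clones overlapped the parental range. The log2 fold change in DIP2C-/- clones was 0.83 (standard error 0.25, adjusted p = 0.318, edgeR), with an adjusted p of 0.0342 without H9-A4. In DIP2C+/- clones it was 0.26 (standard error 0.17, adjusted p = 0.409, edgeR) without H9-A4. The direct test of DIP2C+/- against DIP2C-/- gave -0.66 (standard error 0.20, adjusted p = 0.878, edgeR), so the difference between genotypes did not pass.

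LINC00641 and MIR600HG were lower in the clones other than H9-A4. LINC00641 had 18.0 and 12.5 CPM in parental cells, 9.03 and 8.81 in E3 and C10, and 4.85, 8.43, 5.36 and 7.29 in A6-C9, A9-A12, F6-A7 and G1-A5, with 15.4 in H9-A4. The log2 fold change was -1.08 without H9-A4 (standard error 0.25, adjusted p = 0.0223, edgeR) and -0.85 with it (adjusted p = 0.361). MIR600HG had 22.8 and 25.8 CPM in parental cells, 21.1 and 20.5 in E3 and C10, 13.1, 15.5, 15.7 and 11.9 in those 4 DIP2C+/- clones and 23.4 in H9-A4. Its change was -0.79 in DIP2C+/- clones (adjusted p = 0.0204, edgeR) and -0.23 in DIP2C-/- clones (adjusted p = 0.635), both without H9-A4. The direct test between the genotypes gave -0.57 (adjusted p = 0.679).

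**Figure D3:**
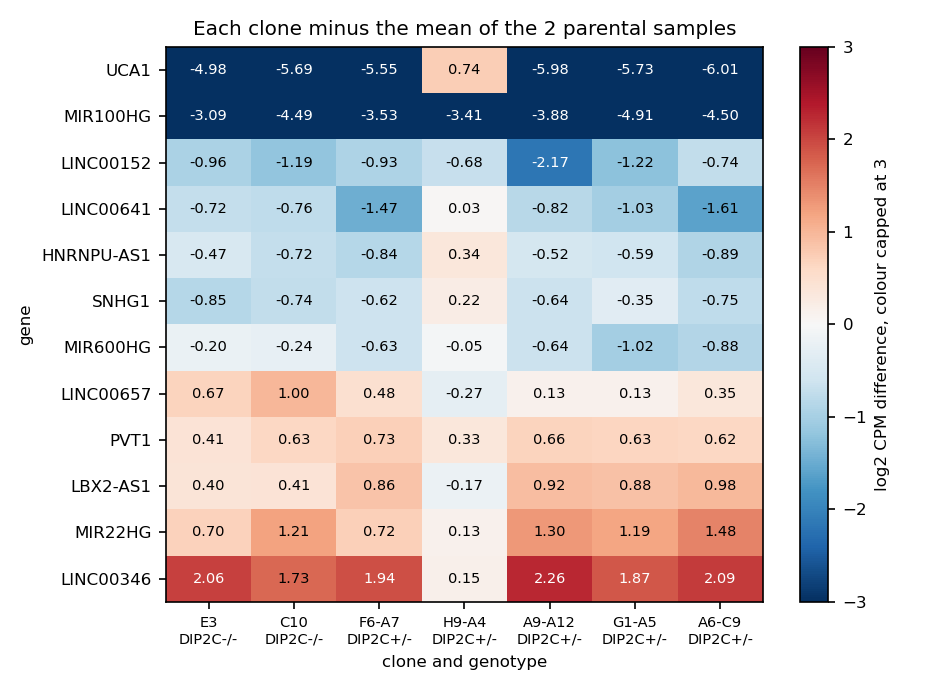
Difference in log2 CPM between each clone (columns) and the mean of the 2 parental samples for 12 genes (rows), with the value in each cell and colour capped at 3. Clone H9-A4 is the column that departs from the others, with 0.74 for UCA1 and 0.15 for LINC00346, but shares the low MIR100HG (-3.41).

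Of the 7 miRNA host genes, 6 had a negative log2 fold change in the average of all clones and MIR22HG a positive one, with a median of -0.50, while 51.8% of all genes were positive. In DIP2C-/- clones alone 4 were negative and 3 positive, with a median of -0.23. MIR100HG passed the test with all samples, and without H9-A4 MIR100HG and MIR600HG were lower and MIR22HG higher. In the average of the clones, 0.174% of all genes were lower and 0.00644% higher with all samples. Without H9-A4 these shares were 4.47% and 4.48%. No test was made over the 7 genes. MIRLET7BHG, which carries let-7a and let-7b genes, had 9.09 and 14.2 CPM in parental cells and 5.03 to 12.7 in the clones, with the highest in H9-A4. Its log2 fold change was -0.59 (standard error 0.33, adjusted p = 0.469, edgeR). MIR143HG (-0.33) and MIRLET7DHG (-0.21) had adjusted p-values of 0.811 and 0.827. LINC00085, the host with the seeds of MIR100HG, is given by its symbol among the LINC genes and was in 0 of the calls.

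The 14 snoRNA host genes are described by counts alone, with no test over the group. Classes follow the symbols in the data, so C17orf76-AS1 (now SNHG29) and LINC00338 (now SNHG20) are not among them. In DIP2C-/- clones 12 of 14 had a negative log2 fold change, with a median of -0.41 (0.02 over all genes). In DIP2C+/- clones 7 of 14 were negative, with a median of -0.03. Without H9-A4 9 of 14 were negative in DIP2C+/- clones, with the same median, and 12 of 14 in DIP2C-/- clones. With all samples 51.8% of all genes were positive in DIP2C-/- clones and 52.2% in DIP2C+/- clones. Whether these counts differ between the genotypes was not tested. SNHG1 passed without H9-A4 and not with all 9 samples. In DIP2C-/- clones SNHG1 also passed when only those clones and the parental samples were fitted (-0.81, adjusted p = 0.00522, edgeR). It had 92.1 and 105 CPM in parental cells, 54.5 and 58.8 in E3 and C10, 58.3, 63.1, 64.1 and 77.3 in A6-C9, A9-A12, F6-A7 and G1-A5, and 114 in H9-A4. The 6 other clones all lay below both parental samples. The log2 fold change was -0.66 without H9-A4 (standard error 0.13, adjusted p = 0.0107, edgeR) and -0.50 with it (standard error 0.22, adjusted p = 0.361, edgeR).

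The other snoRNA hosts did not pass with all samples or without H9-A4, and several differed widely between the parental samples. SNHG6 had 54.0 and 124 CPM in the parental samples and 57.9 to 108 in the clones. GAS5, a growth arrest transcript, had 123 and 199 CPM in parental cells, 128 and 179 in DIP2C-/- clones and 152 to 240 in DIP2C+/- clones, with a log2 fold change of 0.15 (standard error 0.23, adjusted p = 0.831, edgeR) in the average of all clones. SNHG5 had 56.6 and 106 CPM in parental cells and 30.4 to 64.3 in the clones (-0.73, standard error 0.27, adjusted p = 0.322, edgeR). SNHG12 had 17.2 and 25.3 CPM in parental cells and 9.10 and 10.7 in E3 and C10 (-1.10 in DIP2C-/- clones, adjusted p = 0.389). SNHG12 was among the 13 genes called for DIP2C-/- clones when only those clones and the parental samples were fitted (adjusted p = 0.0145). SNHG7 had 975 and 977 CPM in parental cells, 757 and 676 in DIP2C-/- clones and 785 to 1639 in DIP2C+/- clones, and its change was 0.02 (standard error 0.24, adjusted p = 0.983, edgeR). SNHG9 (-1.46), SNHG4 (-0.84) and SNHG8 (-0.39) had adjusted p-values of 0.327, 0.433 and 0.622.

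**Figure D4:**
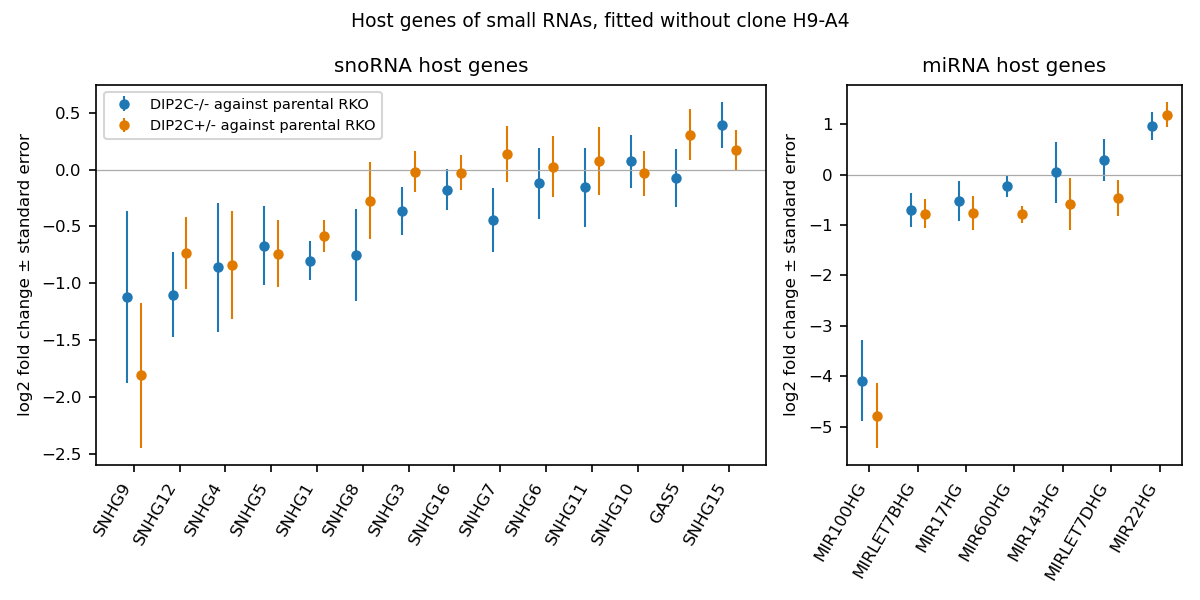
Log2 fold change ± standard error (vertical axis) of the 14 snoRNA host genes (left) and the 7 miRNA host genes (right), fitted without clone H9-A4, in DIP2C-/- clones (blue) and DIP2C+/- clones (orange) against parental RKO. MIR100HG lies below -4 and MIR22HG near 1 in both genotypes, while most error bars of the snoRNA hosts overlap between genotypes.

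The remaining nuclear RNAs did not pass the test. MALAT1 had a log2 fold change of -0.27 (standard error 0.19, adjusted p = 0.563, edgeR) in the average of all clones. NEAT1, the scaffold of paraspeckles, had 66.1 and 119 CPM in parental cells, 93.8 and 127 in DIP2C-/- clones and 57.8 to 161 in DIP2C+/- clones, with a change of 0.29 (standard error 0.33, adjusted p = 0.756, edgeR). TUG1 had 111 and 105 CPM in parental cells, 136 and 131 in E3 and C10, and 86.1 to 137 in DIP2C+/- clones, lowest in H9-A4. Its change was 0.15 (standard error 0.16, adjusted p = 0.724, edgeR), or 0.22 (adjusted p = 0.292) without H9-A4. TUG1 is annotated today as a coding gene, as are 5 of the LINC genes.

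Of the 131 antisense genes, 0 passed with all 9 samples, and LBX2-AS1 (higher) and HNRNPU-AS1 (lower) passed without H9-A4, where 4.48% of all genes were higher and 4.47% lower. LBX2-AS1 had 11.4 and 11.9 CPM in parental cells, 15.4 in both DIP2C-/- clones, 21.1 to 23.0 in 4 DIP2C+/- clones and 10.3 in H9-A4 (0.74 without H9-A4, standard error 0.16, adjusted p = 0.0148, edgeR). HNRNPU-AS1 had 32.7 and 34.9 CPM in parental cells, 24.3 and 20.5 in DIP2C-/- clones, 18.1 to 23.5 in 4 DIP2C+/- clones and 42.7 in H9-A4 (-0.67, standard error 0.16, adjusted p = 0.0227, edgeR). With all 9 samples their changes were 0.65 (adjusted p = 0.352) and -0.48 (adjusted p = 0.490). LBX2, the partner of LBX2-AS1, had a mean of 0.862 CPM. HNRNPU, at a mean of 482 CPM, had a change of -0.19 (adjusted p = 0.555, edgeR) without H9-A4. The symbol HNRNPU-AS1 is listed today under HNRNPU and was not placed as a separate gene. Its counts may therefore not stand for a distinct antisense RNA.

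How far antisense counts stand for antisense RNA is limited by the libraries. No strand setting is stated, so reads of an antisense gene and of an overlapping partner cannot be told apart. Of the 124 antisense genes placed in the annotation, 97 had exons over a coding exon on the opposite strand. A partner with its own row existed for 126 of the 131, and the partner had the higher mean CPM in 103 of these. Among 122 pairs with both genes tested, 12 partners passed without H9-A4 (6 higher and 6 lower, 9.84% in all), and 0 pairs had both genes called. Over all genes 4.48% were higher and 4.47% lower in that fit. With all 9 samples 0 partners passed.

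The pair that diverged most was PXN-AS1 and PXN. PXN encodes paxillin, an adaptor of focal adhesions, and 37.8% of the exon length of PXN-AS1 lies over coding-gene exons on the opposite strand. PXN-AS1 had 3.47 and 3.03 CPM in parental cells, 0.581 and 1.35 in E3 and C10, 1.28, 2.04, 1.16 and 1.77 in A6-C9, A9-A12, F6-A7 and G1-A5, and 3.28 in H9-A4. PXN had 124 and 131 CPM in parental cells, 304 and 267 in E3 and C10, 339, 557, 326 and 349 in the same 4 clones, and 74.1 in H9-A4. Without H9-A4 the log2 fold change of PXN was 1.47 (adjusted p = 0.00169, edgeR), while that of PXN-AS1 was -1.28 (adjusted p = 0.0844, edgeR) and did not pass. With all samples the values were 1.31 (adjusted p = 0.332) and -1.04 (adjusted p = 0.356). These 6 clones lay below both parental samples in PXN-AS1 and above both in PXN, while among the 6 clones A9-A12 was highest in both.

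NPPA-AS1 had the largest positive change of the antisense genes with a partner, 1.76 (standard error 0.85, adjusted p = 0.396, edgeR), on 0.551 and 0.261 CPM in parental cells and 0.107 to 2.13 in the clones. These are 2 to 44 reads per sample, and A9-A12 lay below both parental samples. NPPA, its partner, is at 0.110 to 1.04 CPM, and changed by 1.77 (adjusted p = 0.332). PSMG3-AS1 (1.15), CD27-AS1 (1.12), SNAI3-AS1 (1.04), DLG5-AS1 (0.97) and ASB16-AS1 (0.92) had adjusted p-values of 0.464, 0.390, 0.544, 0.396 and 0.321. Their partners PSMG3, CD27, SNAI3, DLG5 and ASB16 had log2 fold changes of 0.02, -0.12, 0.20, -0.02 and 0.51. NPPA-AS1 (counts of 10.3 and 5.31 in the parental samples) and SNAI3-AS1 (13.2 and 20.1) were kept through their counts in the clones. The increases of these 2 genes are therefore partly built into the choice. TMPO-AS1 had 6.5 and 4.6 CPM in parental cells, 2.39 and 1.5 in DIP2C-/- clones and 2.8 to 4.7 in DIP2C+/- clones. Its change in DIP2C-/- clones was -1.51 (standard error 0.44, adjusted p = 0.318, edgeR), a call by DESeq2 (adjusted p = 0.0339), and that of TMPO was -0.25 (adjusted p = 0.771).

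**Figure D5:**
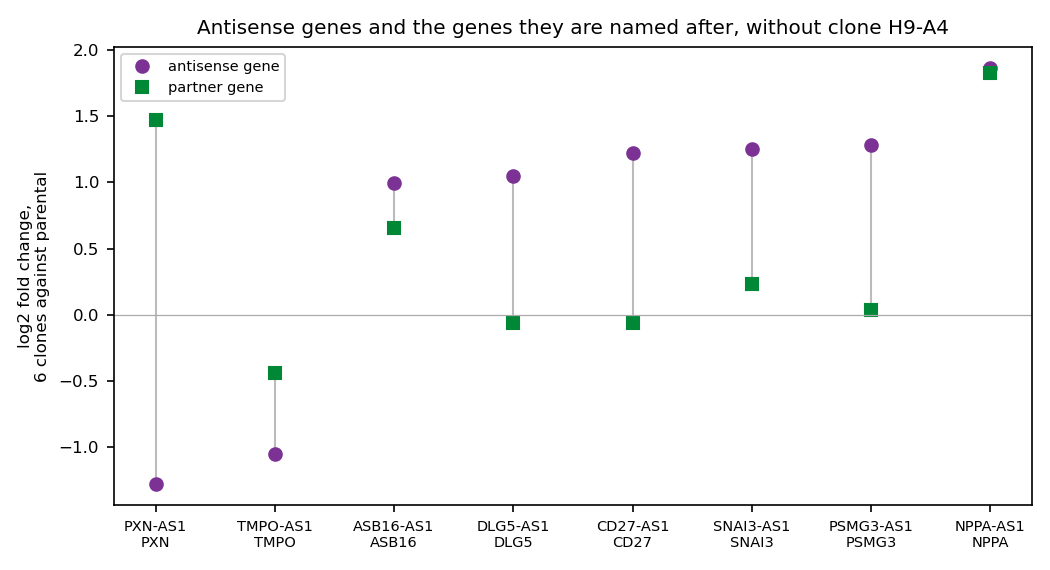
Log2 fold change of the 6 clones other than H9-A4 against parental RKO (vertical axis) for 8 antisense genes (circles) and the genes they are named after (squares), joined by a line. PXN-AS1 (-1.28) and PXN (1.47) lie on opposite sides of 0, and NPPA-AS1 and NPPA lie together.

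Each clone is 1 library, so single clones are described with no test. The share of the 185 genes that differed from the parental mean by at least 2-fold was 15.1% in E3 and 14.6% in C10, against 14.4% and 11.9% of all genes. It was 19.5% in A6-C9, 17.8% in A9-A12, 13% in F6-A7 and 11.9% in G1-A5, against 14%, 13.9%, 14.1% and 12% of all genes. In H9-A4 it was 7.57%, against 7.44%. A6-C9 thus departed most and H9-A4 least. The parental samples differed from each other by at least 2-fold at 10.3% of the noncoding genes and at 7.9% of all genes. The median SD of log2 CPM over the 9 samples was 0.45 for the noncoding genes and 0.344 for all genes. Of the 185 genes, 8 lay above both parental samples in all 7 clones (4.32%, background 5.41%), among them LINC00346, PVT1, CD27-AS1 and DLG5-AS1. In all 7 clones 7 genes lay below (3.78%, background 5.54%), among them MIR100HG, LINC00152 and MIR17HG. Without H9-A4 the counts were 20 above (10.8%, background 12.4%) and 18 below (9.73%, background 11.5%).

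Between the genotypes, 0 of the 185 genes differed in the test of DIP2C+/- against DIP2C-/- clones, with or without H9-A4 (edgeR, background 0% in both directions). At an unadjusted p under 0.05 there were 9 with all samples (4.86%, against 5.57% of all genes) and 13 without H9-A4 (7.03%, against 7.1%). DESeq2 called 0 of them and 6 of all genes. For MIR100HG the difference was -0.43 (standard error 0.76) and for LINC00346 -0.08 (standard error 0.42), and a p that misses the threshold does not show that the genotypes are alike.

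Genes that act on these RNAs were followed as well. Of 10 core and assembly proteins of snoRNA particles, 10 nonsense-mediated decay factors, 10 miRNA processing genes, 11 paraspeckle proteins and 13 genes of the nuclear exosome and its targeting complexes, 0 passed with all 9 samples. The background in the average of all clones was 0.00644% of all genes higher and 0.174% lower. Without H9-A4, in the average of the clones, AGO2, the slicing Argonaute that carries miRNAs, was higher (1.03, adjusted p = 0.00117, edgeR), with 144 and 188 CPM in parental cells, 158 in H9-A4 and 291 to 363 in the other clones. SMG8, a regulator of the decay kinase SMG1, was higher by 0.54 (adjusted p = 0.0290), and EXOSC4, an exosome subunit, by 0.56 (adjusted p = 0.0309). Of the snoRNA particle and paraspeckle genes 0 passed. Each call was thus 1 gene of its list, while 4.48% of all genes were higher and 4.47% lower in that fit. No test was made over the lists. In the average of all clones with all 9 samples, the list medians were between -0.09 and 0.03, against 0.02 for all genes. In DIP2C-/- clones those of the paraspeckle and miRNA processing lists were -0.18 and -0.15.

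The promoters of the kept noncoding genes were more often rich in CpG than RefSeq promoters at large. The kept genes were selected on expression and the other promoters were not. The shares were not compared at equal expression, so they do not show a trait of noncoding genes. Of the 185, 145 had a RefSeq promoter, taken as 250 bases before to 50 after the start on GRCh38.p14. These held a median of 23 CG dinucleotides, against 14 over all promoters, and 77.9% held at least 10, against 56.0% of all promoters. MIR22HG and LINC00346, picked from the genes that rose without H9-A4, differed in CG count. The promoters of the other genes that rose are not described here. MIR22HG had 32 CG dinucleotides and LINC00346 had 7, and both promoters are shown with CG in capitals. CG is its own complement, so the count holds for both strands. That of MIR22HG is at chr17:1716161-1716460 and that of LINC00346 at chr13:110870259-110870558, both on the minus strand:

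MIR22HG promoter: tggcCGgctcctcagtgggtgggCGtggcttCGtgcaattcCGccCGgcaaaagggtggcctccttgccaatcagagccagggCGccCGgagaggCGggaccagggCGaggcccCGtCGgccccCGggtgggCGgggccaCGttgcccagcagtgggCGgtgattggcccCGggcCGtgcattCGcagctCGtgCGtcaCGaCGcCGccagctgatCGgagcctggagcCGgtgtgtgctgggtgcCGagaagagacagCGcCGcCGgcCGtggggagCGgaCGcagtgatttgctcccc

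LINC00346 promoter: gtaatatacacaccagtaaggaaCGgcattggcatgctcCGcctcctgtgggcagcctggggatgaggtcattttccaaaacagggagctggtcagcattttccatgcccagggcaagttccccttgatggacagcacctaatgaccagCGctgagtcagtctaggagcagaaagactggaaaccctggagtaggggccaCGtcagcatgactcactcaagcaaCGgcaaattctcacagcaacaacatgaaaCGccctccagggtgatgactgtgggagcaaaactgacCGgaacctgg

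A CG count describes the sequence, and DNA methylation of these clones was not analysed here.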

How the data were processed

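Total RNA of 9 RKO samples was sequenced on the Ion Proton. Per the labels, methods and processing notes, the authors aligned reads to hg19 with TopHat2 2.0.4 and quantified UCSC genes with Cufflinks 2.2.1 (per the notes). The deposited values were taken as estimated counts, and how they were written is not stated. In each sample 97.9% to 98.5% of low values were whole multiples (tolerance 0.01) of a step of 0.711 to 1.11, and reads quoted here are values divided by that step. Strand use is not given in the sources used here, and no batch or date is given.

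Estimated counts were rounded, filtered with filterByExpr (all 185 genes passed), scaled by TMM and fitted with edgeR 4.0.16 (quasi-likelihood, 1 coefficient per group) in R 4.3.3. The design had allowed for whole or estimated counts. A call is an adjusted p (Benjamini-Hochberg, all tested genes) under 0.05. CPM are rounded values per 1000000 of the TMM-scaled total. In all, 4 comparisons were tested: each genotype and the average of all clones against parental cells, and DIP2C+/- against DIP2C-/-. DESeq2 1.42.0, other filters and scalings, only the compared groups, and each sample left out were alternatives. Scripts were tested on simulated data. Intervals cover counting error only.

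The members, lists and tests were chosen with earlier results of these data known. Genes named are the 6 in the selection rule, those called, up to 6 per direction called without H9-A4 with clones outside the parental range, host genes, and 8 antisense genes with the largest change. Others were named after their values were seen. Of the 185 genes, 178 were placed in GENCODE 44 on GRCh37, 30 of them by an older symbol. Methylation was not analysed here.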

Additional observations from a re-analysis of the deposited data

Results flagged for a closer look

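Among the 5 DIP2C+/- clones, 40 named genes were examined for 1 sample far from the others (gap over range above 0.71), and 3 were found. Chance alone gives about 1 in 20 groups, or about 2 of 40. All 3 were in clone H9-A4, and all 3 genes had been named because they were called when H9-A4 was left out (UCA1 also by the selection rule), so they are no independent sign that it stands apart. UCA1 had 22.65 CPM there and 0.102 to 0.183 in the other DIP2C+/- clones. HNRNPU-AS1 had 42.7 CPM there and 18.1 to 23.5 in the others. LBX2-AS1 had 10.31 CPM there and 21.1 to 23.0 in the others. DIP2C in H9-A4 was 56.3 CPM, below both parental samples and above the other DIP2C+/- clones, and its part in these values was not tested.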

How the results depend on the processing

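Of the single-gene results under the alternatives, 841 kept direction and side of the threshold, 34 passed only under the alternative (24 of them without H9-A4), 8 no longer passed, all of them MIR100HG with 1 sample left out, and 22 changed sign, none of them called. Counts are of all tested genes unless stated. With no filter on low counts, 3 genes were lower in DIP2C-/- clones, 1 higher in DIP2C+/- clones and 2 higher in the average of all clones. With at least 10 counts in every sample, which removes MIR100HG, the lower counts in those 3 comparisons were 0, 8 and 11, the higher count in the average 0, and long noncoding genes called lower 0 in both comparisons that had 1. DESeq2 called 105 higher and 190 lower in DIP2C-/- clones (1 and 2 of the noncoding genes), 98 and 93 in DIP2C+/- clones (1 noncoding gene higher), 157 and 147 in the average (2 noncoding genes higher) and 6 higher between genotypes. With only the compared groups, 826 were higher and 981 lower in DIP2C-/- clones (6 and 7 noncoding), 8 lower in DIP2C+/- clones, 2 higher in the average and 1 higher between genotypes. Requiring a 4-fold change left 0 higher in the average. A minimum mean count of 10 gave 2 noncoding genes lower in DIP2C+/- clones and in the average, and a minimum of 50, which kept 116 genes, gave 0. With a prior count of 0.5, genes up at least 4-fold were 2 in A9-A12 and F6-A7 and 1 in C10 and G1-A5, and 2 were down in H9-A4, as with library size only.

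Leaving out 1 sample at a time gave 0 to 690 higher and 1 to 688 lower in the average (noncoding 0 to 4 and 0 to 7), 0 to 357 and 1 to 376 in DIP2C-/- clones (0 to 2 and 0 to 3), 0 to 673 and 1 to 551 in DIP2C+/- clones (0 to 4 and 0 to 6) and 0 to 3 higher between genotypes. The upper ends are without H9-A4, except that between genotypes, which is without C10. The cause was not tested. With library size only, SNHG7 (-0.014) and SNHG11 (-0.012) changed sign in the average, and SNHG3 (0.013) did with only the compared groups. With 1 sample left out the sign-changing log2 values ran from -0.0777 to 0.77 for NEAT1, -0.16 to 0.54 for GAS5, -0.78 to 0.14 for SNHG8, -0.0018 to 0.38 for SNHG15, -0.57 to 0.63 for SNHG6, -0.000503 to 0.12 for SNHG10, -0.0823 to 0.0049 for SNHG16, -0.13 to 0.11 for SNHG7, -0.0764 to 0.0661 for SNHG11, -0.22 to 0.24 for SNHG3 and -0.68 to 0.13 for MIR143HG.

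No paired analysis was possible because the clones carry names and share no replicate number with the parental samples.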
